A study of Mus musculus with 7 samples.

Results

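Transcript levels of 33 genes that encode endoplasmic reticulum chaperones, folding enzymes and components of the unfolded protein response were followed in macrophages sorted from the inflamed mouse colon. The genes were chosen by name, with earlier results of these data known. A gene was taken as measured where a probe set carried its symbol alone. Where several probe sets qualified, the brightest on average across the 7 arrays stood for the gene. This gave 32 of the 33 genes, among 22180 genes in all, and Pdia4 was not analysed here because its probe set also carries a microRNA symbol. All mice carried floxed alleles of Rictor, a subunit of the kinase complex mTORC2, and all had colitis from dextran sulphate sodium (DSS), given at 5% for 5 days, with plain water for 3 further days. The LysM+/cre group (Rictorfl/fl LysM+/cre, 4 arrays) also carried cre recombinase on 1 allele of LysM (Lyz2), a locus expressed by macrophages, monocytes and neutrophils. The LysM+/+ group (Rictorfl/fl LysM+/+, 3 arrays) had no cre. Mice with cre and no floxed Rictor were not among the groups, so effects of cre, of its insertion into Lyz2 and of Rictor loss cannot be told apart. The sort kept cells with CD45, CD11b, CD64 and MHC class II on the surface but no Ly6C. The labels do not say whether each array held 1 mouse, so the p-values measure only the spread between these samples.

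Secreted and membrane proteins enter the endoplasmic reticulum through the Sec61 channel, are glycosylated and cut by enzymes at the membrane, and fold in the lumen with the help of chaperones and protein disulphide isomerases. Proteins that do not fold are drawn back into the cytosol and destroyed by the proteasome. When unfolded protein accumulates, the membrane sensors IRE1 (encoded by Ern1), ATF6 and PERK (encoded by Eif2ak3) start the unfolded protein response, in which ATF6 and the spliced form of XBP1 induce chaperone and degradation genes. Macrophages use this machinery to make cytokines, lysosomal enzymes and surface receptors.

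ATF6 and XBP1 are known to act through short promoter sequences, so RefSeq promoter windows (build GRCm38.p6, 250 bases before to 50 after each start) were searched on both strands for their letters. The endoplasmic reticulum stress element (ERSE, which is CCAAT and CCACG with any 9 bases between them) was found in 8 of 25 genes with a window (32.0%), namely Calr, Canx, Creld2, Dnajc3, Hsp90b1, Hspa5, Pdia6 and Syvn1, and 37 of all 27025 genes with a window held it (0.137%). The second such element (ERSE-II, ATTGG and CCACG with any 1 base between them) was found in Dnajb11 and Herpud1, against 0.0444% of all genes. The XBP1 element TGACGTGG was found in 0 of the 25, against 0.714% of all genes, and no window of these genes held 2 kinds of element. No window was listed for Atf6, Derl1, Hyou1, Manf, Ostc, Rcn1, Sec11c or Sec61a1. The next 5 sequences are shown because these genes hold ERSE or ERSE-II and their genotype differences vary in sign. Calr and Pdia6 were higher in LysM+/cre, and Hspa5, Dnajc3 and Herpud1 were on the other side of 0. Those negative differences did not reach an unadjusted p under 0.05. Capitals mark ERSE, or ERSE-II in Herpud1. The Calr element lies on the opposite strand, so it reads as the reverse complement.
Calr: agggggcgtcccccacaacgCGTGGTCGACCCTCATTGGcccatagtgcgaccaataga
Pdia6: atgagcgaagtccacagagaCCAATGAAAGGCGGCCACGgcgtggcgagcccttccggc
Hspa5: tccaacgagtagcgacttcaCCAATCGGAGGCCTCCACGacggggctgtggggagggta
Dnajc3: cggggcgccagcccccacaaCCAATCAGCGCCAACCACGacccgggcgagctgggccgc
Herpud1: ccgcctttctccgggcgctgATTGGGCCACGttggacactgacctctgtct

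These stretches are chr8:84847055-84847113 (minus strand) for Calr, chr12:17266471-17266529 (plus strand) for Pdia6 and chr2:34772005-34772063 (plus strand) for Hspa5. Those of Dnajc3 and Herpud1 are chr14:118937807-118937865 and chr8:94386357-94386407, both on the plus strand. The element ends 143 bases before the start of Calr, 79 before that of Pdia6, 46 before that of Hspa5, 86 before that of Dnajc3 and 41 before that of Herpud1.

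Over all probe sets, arrays of the same genotype correlated at 0.972 to 0.982 and arrays of different genotypes at 0.968 to 0.977. Rictor, the floxed gene, read 7.72, 7.76, 8.25 and 7.80 on the LysM+/cre arrays and 7.76, 7.74 and 7.80 on the LysM+/+ arrays (log2 intensity), so its signal did not separate the genotypes. The exons that its probes target are unknown here, so this neither checks nor contradicts the labels. Among 10 macrophage markers Csf1r read 11.87 to 12.12 in LysM+/cre and 11.68 to 12.24 in LysM+/+, and Cx3cr1 read 7.81 to 10.05 in LysM+/cre and 8.78 to 10.29 in LysM+/+. Genes of the gate were uneven, with Fcgr1 (CD64) at 10.28 to 11.10 in LysM+/cre and 9.49 to 10.28 in LysM+/+, a difference of 0.97, and Itgam (CD11b) at a difference of 0.53. Cd68 differed by -0.20 without overlap. The adjusted p-values of these 3 genes were 0.362 for Fcgr1, 0.415 for Itgam and 0.419 for Cd68, all with an unadjusted p under 0.05. Ly6c2, which encodes an antigen of the negative gate, read 9.30, 7.69, 7.87 and 8.48 in LysM+/cre, against 6.87, 7.15 and 7.70 in LysM+/+. Its difference was 1.09 (adjusted p = 0.415), also with an unadjusted p under 0.05. The remaining gate genes had smaller differences, none with an unadjusted p under 0.05. Ptprc (CD45) differed by 0.25, H2-Ab1 and H2-Aa (MHC class II) by -0.04 and -0.06, and Ly6c1 by -0.09.

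Most members were higher in LysM+/cre, by small amounts that did not pass the test over all genes. Of the 32 members 24 had a positive difference, as had 51.4% of all genes, and the median difference (LysM+/cre minus LysM+/+) was 0.18 on the log2 scale, against 0.0044 over all genes. After adjustment over all genes at 0.05, limma called 0% of the 22180 genes and thus none of the members, where the smallest adjusted p was 0.314 among members and 0.195 over all genes. At an unadjusted p under 0.05 there were 11 members higher, where 6.56% of all genes were, and 0 lower, where 4.93% of all genes were. Among all genes brighter than the median gene, a class that holds 31 of the 32 members, 11.5% were higher by that threshold, 56.1% had a positive difference and the median was 0.03. For 6 members every LysM+/cre array was above every LysM+/+ array, as for 5.23% of all genes, and for 0 members every one was below, as for 3.56% of all genes. Among the 11090 genes brighter than the median gene, every LysM+/cre array was above for 985 and below for 514. Without LysM+/cre array 1 the count of 11 members higher was 7, where 4.40% of all genes were.

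**Figure D1:**
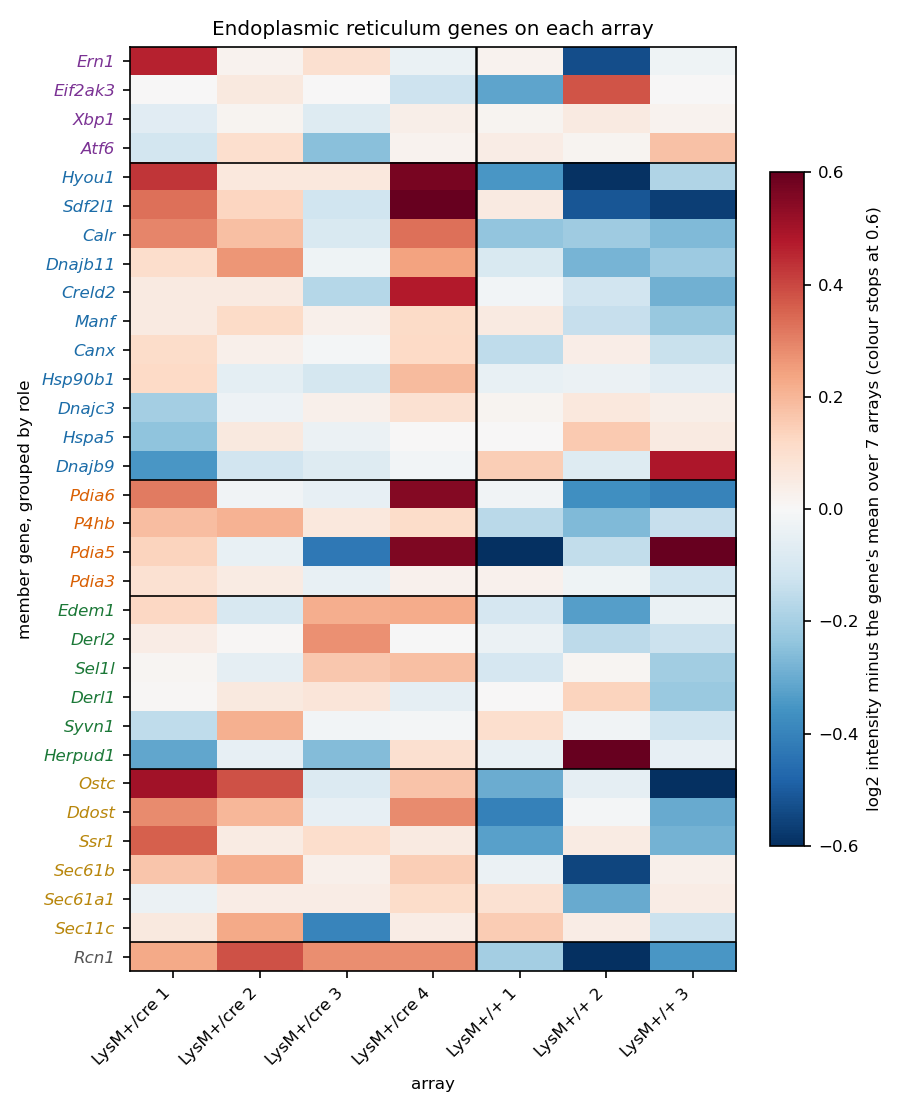
Each row is a member, grouped by role, and each column an array, with LysM+/cre left of the line and LysM+/+ right of it. Colour gives the log2 intensity minus the gene's mean over the 7 arrays, and stops at 0.6 in either direction. LysM+/cre array 4 was the highest of the 7 arrays for 13 of 32 members, and LysM+/+ array 1 for 0.

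**Figure D2:**
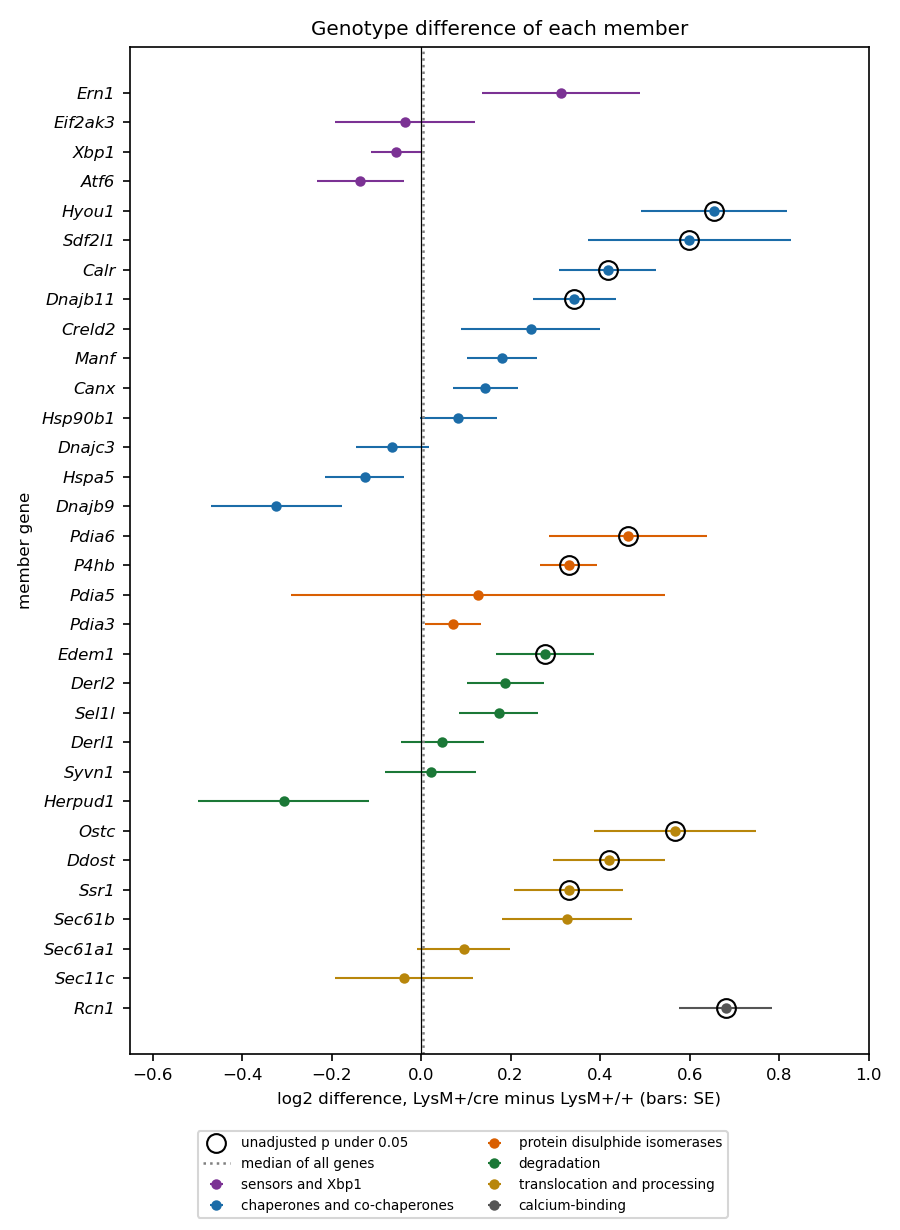
Points give the log2 difference of each member, LysM+/cre minus LysM+/+, with bars of 1 SE from limma. Circled points are the 11 members at an unadjusted p under 0.05, all right of 0. The dotted line is the median of all genes (0.0044).

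The sensors had small or uneven differences. Ern1 encodes IRE1, the kinase and endoribonuclease that splices Xbp1 RNA. It read 9.995, 9.56, 9.63 and 9.49 in LysM+/cre, against 9.56, 9.004 and 9.51 in LysM+/+ (log2 intensity). The groups overlapped, with LysM+/cre array 1 the highest and LysM+/+ array 2 the lowest, and the difference was 0.31 (95% interval -0.10 to 0.73, adjusted p = 0.532). Without LysM+/cre array 1 it was 0.20, and without LysM+/+ array 2 it was 0.14. With the replicate number as a block, a fit without LysM+/cre array 4, it was 0.37 and passed the unadjusted threshold (adjusted p = 0.482).

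Atf6, whose product is cut in the Golgi to release a transcription factor, read 10.56, 10.77, 10.42 and 10.69 in LysM+/cre and 10.71, 10.68 and 10.84 in LysM+/+. The ranges overlapped and the difference was -0.14 (95% interval -0.37 to 0.09, adjusted p = 0.613). Without LysM+/cre array 3 it was -0.073, and without LysM+/+ array 3 it was -0.088. Eif2ak3, which encodes PERK, the kinase that slows translation by phosphorylating eIF2 alpha, read 6.63, 6.69, 6.63 and 6.503 in LysM+/cre and 6.31, 7.005 and 6.63 in LysM+/+. All 4 LysM+/cre values lay within the LysM+/+ range, the difference was -0.04 (95% interval -0.41 to 0.33, adjusted p = 0.942), and without LysM+/+ array 2 it was 0.14. Xbp1 encodes the transcription factor made after splicing by IRE1. Its signal was close on all arrays, at 10.37, 10.46, 10.37 and 10.48 in LysM+/cre and 10.46, 10.50 and 10.47 in LysM+/+, a difference of -0.06 (95% interval -0.19 to 0.08, adjusted p = 0.719). A probe set of the whole gene does not measure splicing or sensor activity. Of these 4 genes 1 had a positive difference, 0 passed the unadjusted threshold in either direction, and the median was -0.05, with 0.05 as the median without LysM+/+ array 2.

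The 11 chaperones and co-chaperones divided, with 8 positive and 3 negative differences and a median of 0.18, which was 0.12 without LysM+/+ array 3. At the unadjusted threshold 4 were higher and 0 lower, where 6.56% and 4.93% of all genes were. Calr encodes calreticulin, a calcium-binding lectin that folds glycoproteins. It read 10.41, 10.30, 10.03 and 10.46 in LysM+/cre, against 9.89, 9.91 and 9.86 in LysM+/+, with no overlap. The means were 10.30 ± 0.191 in LysM+/cre (SD, n = 4) and 9.89 ± 0.0262 in LysM+/+ (SD, n = 3), a difference of 0.42 ± 0.108 (SE, adjusted p = 0.362).

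Hyou1, a large lumenal relative of the HSP70 chaperones that acts as a nucleotide exchange factor for BiP, read 8.48, 8.12, 8.12 and 8.63 in LysM+/cre, against 7.71, 7.46 and 7.87 in LysM+/+. Every LysM+/cre array was above every LysM+/+ array, and the difference was 0.65 ± 0.163 (SE, adjusted p = 0.354). Dnajb11, a J-domain co-chaperone that passes substrates to BiP, read 8.71, 8.87, 8.57 and 8.84 in LysM+/cre and 8.51, 8.32 and 8.38 in LysM+/+. These groups too did not overlap, and the difference was 0.34 ± 0.0919 (SE, adjusted p = 0.364). Sdf2l1, which forms a complex with Dnajb11, read 8.70, 8.49, 8.25 and 9.05 in LysM+/cre and 8.42, 7.85 and 7.80 in LysM+/+. Here LysM+/+ array 1 lay above LysM+/cre array 3, and the difference was 0.60 ± 0.227 (SE, adjusted p = 0.416). It ranged from 0.46 without LysM+/cre array 4 to 0.80 without LysM+/+ array 1.

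Hspa5 encodes BiP, the HSP70 chaperone of the lumen that also restrains the sensors, and it is a standard marker of the unfolded protein response. It read 10.74, 11.04, 10.94 and 10.98 in LysM+/cre, against 10.98, 11.14 and 11.03 in LysM+/+. The groups overlapped, with LysM+/cre array 1 the lowest, and the difference was -0.13 (95% interval -0.33 to 0.08, adjusted p = 0.606). Without LysM+/cre array 1 it was -0.063, and without LysM+/+ array 2 it was -0.083. Dnajb9, a BiP co-chaperone that holds IRE1 in check and is induced by spliced XBP1, read 10.45, 10.69, 10.73 and 10.79 in LysM+/cre and 10.95, 10.72 and 11.29 in LysM+/+. Its difference was -0.32 ± 0.146 (SE, adjusted p = 0.452), and the groups overlapped through LysM+/+ array 2. Without LysM+/+ array 3 it was -0.17, and without LysM+/+ array 2 it was -0.46.

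Dnajc3, a J-domain protein known as an inhibitor of PERK, was near equal at 9.02 ± 0.128 in LysM+/cre (SD, n = 4) and 9.08 ± 0.0233 in LysM+/+ (SD, n = 3). Hsp90b1 (GRP94, the lumenal HSP90 that folds Toll-like receptors and integrins) differed by 0.08 ± 0.0858 (SE), and the membrane lectin chaperone gene Canx by 0.14 ± 0.0723 (SE). Manf, a small secreted and lumenal stress protein, differed by 0.18 ± 0.0784 (SE). Creld2, a stress-induced disulphide-binding protein, differed by 0.24 ± 0.155 (SE), with 9.49 on LysM+/cre array 4 and 8.72 to 9.07 on the other arrays. None of these 5 passed the unadjusted threshold, and each had overlapping groups.

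All 4 measured disulphide isomerases had positive differences, with 2 at the unadjusted threshold and a median of 0.23, which was 0.37 without LysM+/+ array 3. At that threshold 6.56% of all genes were higher, and 11.5% of those brighter than the median gene. P4hb, which encodes the classical protein disulphide isomerase, read 10.58, 10.60, 10.46 and 10.50 in LysM+/cre, against 10.23, 10.13 and 10.25 in LysM+/+. The groups did not overlap, and the means of 10.53 ± 0.0657 in LysM+/cre (SD, n = 4) and 10.20 ± 0.0656 in LysM+/+ (SD, n = 3) differed by 0.33 ± 0.0639 (SE, adjusted p = 0.328). Pdia6, an isomerase that attenuates IRE1 and PERK signalling, read 9.26, 8.93, 8.90 and 9.51 in LysM+/cre and 8.93, 8.59 and 8.55 in LysM+/+. LysM+/+ array 1 reached the level of the lower LysM+/cre arrays, and the difference was 0.46 ± 0.176 (SE, adjusted p = 0.416). Pdia3, the partner of calreticulin and calnexin and a part of the MHC class I loading complex, differed by 0.07 ± 0.0631 (SE). Pdia5 differed by 0.13 ± 0.418 (SE), with LysM+/+ arrays that ran from 4.78 to 6.53.

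**Figure D3:**
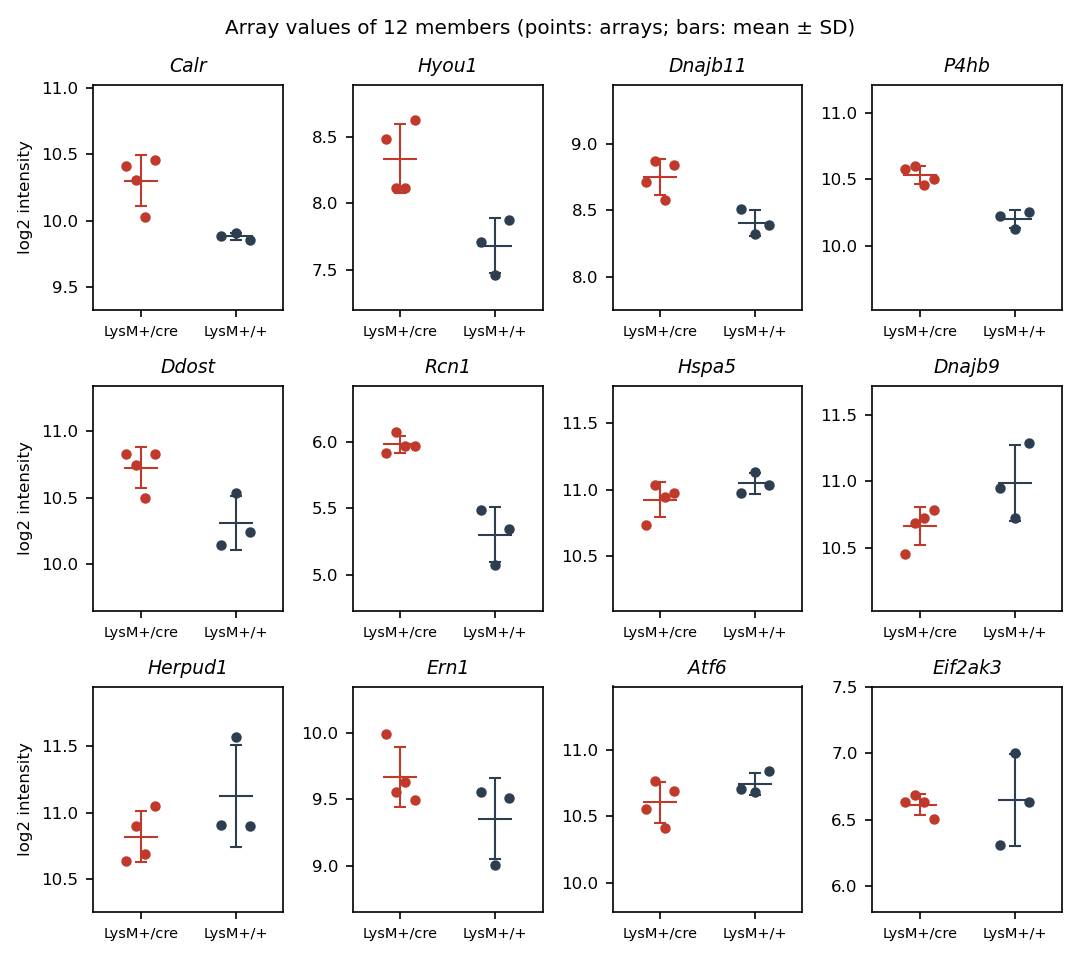
Log2 intensity of 12 members, with LysM+/cre left and LysM+/+ right in each panel, points for arrays and bars for mean ± SD. All panels span the same number of log2 units. Calr, Hyou1, Dnajb11, P4hb and Rcn1 show no overlap between genotypes, and the other 7 genes overlap.

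The 6 genes of endoplasmic reticulum associated degradation had a median difference of 0.11, with 5 positive, 1 at the unadjusted threshold and 0 lower at it. That median was 0.044 without LysM+/+ array 3, 0.056 after quantile normalization and 0.035 with the mean of each gene's probe sets. Beside the count of 1 higher stand 6.56% of all genes, and 11.5% of those brighter than the median gene. Edem1, a lectin that hands misfolded glycoproteins to the degradation machinery, read 10.22, 9.996, 10.31 and 10.31 in LysM+/cre, against 9.99, 9.76 and 10.05 in LysM+/+. The groups overlapped, and the difference was 0.28 ± 0.109 (SE, adjusted p = 0.422). Herpud1, a stress-induced membrane protein of the degradation complex, read 10.64, 10.90, 10.69 and 11.05 in LysM+/cre and 10.91, 11.57 and 10.90 in LysM+/+. LysM+/+ array 2 stood above all others, and the difference was -0.31 ± 0.191 (SE, adjusted p = 0.566). Without LysM+/+ array 2 it was -0.08.

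Syvn1 (HRD1, the ubiquitin ligase of this pathway) and its partner Sel1l differed by 0.02 ± 0.101 and 0.17 ± 0.0875 (SE). Derl1, a component of the channel that returns proteins to the cytosol, differed by 0.05 ± 0.0924 (SE). Its relative Derl2 read 6.32, 6.28, 6.55 and 6.27 in LysM+/cre and 6.24, 6.12 and 6.14 in LysM+/+, without overlap, for a difference of 0.19 ± 0.0856 (SE, adjusted p = 0.454). The other probe set of Derl2, which is dimmer, differed by -0.31 ± 0.362 (SE), so its probe sets did not share a sign, and their mean differed by -0.060.

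The 6 genes of translocation and early processing had a median difference of 0.33, with 5 positive differences, 3 at the unadjusted threshold and 0 lower at it. By that threshold 6.56% of all genes were higher and 4.93% lower, and 11.5% of those brighter than the median gene were higher. Ddost, a subunit of the oligosaccharyltransferase that attaches N-glycans, read 10.83, 10.75, 10.50 and 10.83 in LysM+/cre, against 10.14, 10.54 and 10.24 in LysM+/+. Only LysM+/+ array 2 reached into the LysM+/cre range, just above LysM+/cre array 3, and the difference was 0.42 ± 0.125 (SE, adjusted p = 0.394). Ostc, another subunit of that enzyme, read 8.39, 8.27, 7.80 and 8.05 in LysM+/cre and 7.58, 7.83 and 7.26 in LysM+/+. Its groups overlapped through the same pair of arrays, and the difference was 0.57 ± 0.182 (SE, adjusted p = 0.401).

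Ssr1, a subunit of the translocon-associated complex, read 7.75, 7.44, 7.50 and 7.44 in LysM+/cre and 7.06, 7.44 and 7.11 in LysM+/+, a difference of 0.33 ± 0.122 (SE, adjusted p = 0.415). LysM+/+ array 2 was level with the lower LysM+/cre arrays. The Sec61 channel subunit genes Sec61b and Sec61a1 differed by 0.33 ± 0.145 and 0.09 ± 0.105 (SE), and neither passed the unadjusted threshold. Sec11c, a catalytic subunit of signal peptidase, differed by -0.04 ± 0.154 (SE). Rcn1, a calcium-binding protein of the lumen, read 5.92, 6.07, 5.97 and 5.97 in LysM+/cre, against 5.49, 5.08 and 5.34 in LysM+/+. The groups did not overlap, and the difference was 0.68 ± 0.104 (SE, adjusted p = 0.314). Rcn1 was dim for a member, with a mean of 5.69 at percentile 53.0 of all genes, against a median percentile of 93.1 over members.

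The genes with ERSE in their promoter window did not share a sign, though neither negative difference, of Hspa5 and Dnajc3, passed the unadjusted threshold. Of the 8, 6 had positive and 2 negative differences, from -0.13 for Hspa5 to 0.46 for Pdia6, with a median of 0.11 and 2 at the unadjusted threshold. Of the 14 measured genes whose window held neither ERSE nor ERSE-II, 11 had positive differences, with a median of 0.23 and 5 at that threshold. By that threshold 6.56% of all genes were higher, and 11.5% of those brighter than the median gene. The ERSE-II genes had opposite signs, at 0.34 for Dnajb11 and -0.31 for Herpud1. The classes were not tested against each other.

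Members varied among the arrays of 1 group. Within LysM+/cre, array 4 was the highest for 17 of 32 members and array 3 the lowest for 17. The mean deviation of the 32 members from their means was 0.09, 0.08, -0.03 and 0.17 on the LysM+/cre arrays and -0.10, -0.12 and -0.11 on the LysM+/+ arrays. In this mean the LysM+/cre arrays all lay above the LysM+/+ arrays, and spread more widely. For the sensor group the same deviations overlapped, at 0.07, 0.05, -0.06 and -0.03 in LysM+/cre and -0.06, -0.02 and 0.04 in LysM+/+. Single members did not spread more widely in LysM+/cre, with a median SD of 0.144, against 0.147 in LysM+/+. Without LysM+/cre array 3 the median difference of all members was 0.18. In that fit 9 members were higher at the unadjusted threshold, against 11 with all arrays.

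A wider list of 96 further genes of the same compartment, of which 92 were measured, was described in the same way. Of these 76 had a positive difference, as had 51.4% of all genes, and the median was 0.20. At the unadjusted threshold 32 were higher and 1 lower, set beside 6.56% and 4.93% of all genes. Of the 92 genes 88 were brighter than the median gene. Among all genes of that class 11.5% were higher by that threshold and 56.1% had a positive difference. The count of 32 was 21 and 19 without LysM+/+ array 2 or 3, and 19, 17 and 18 without LysM+/cre array 1, 2 or 4. In the same fits and order, the share of all genes higher was 5.46% and 4.55%, and 4.40%, 5.24% and 4.98%. Translocation and processing genes gave 13 of 27. Spcs3 and Spcs2, subunits of signal peptidase, differed by 0.56 ± 0.127 and 0.48 ± 0.117 (SE), and the oligosaccharyltransferase catalytic subunit gene Stt3b by 0.28 ± 0.0693 (SE). For each of these 3 genes the genotypes did not overlap.

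Other degradation genes gave 7 of 18, led by Aup1, a partner of the ubiquitin machinery at the membrane, at 0.33 ± 0.0833 (SE). Vcp, the ATPase that extracts proteins from the membrane, differed by 0.34 ± 0.113 and the ubiquitin ligase gene Rnf5 by 0.31 ± 0.103 (SE). Other folding and glycan control genes gave 6 of 23. They included Cnpy3, a co-chaperone for Toll-like receptors, at 0.59 ± 0.144, Uggt1, the glucosyltransferase that senses misfolded glycoproteins, at 0.26 ± 0.0738, and Ganab, the catalytic subunit of glucosidase II, at 0.50 ± 0.146 (SE). Oxidative folding genes gave 4 of 12, with the retention factor Erp44 at 0.52 ± 0.157, Tmx1 at 0.53 ± 0.179 and Txndc11 at 0.36 ± 0.122 (SE). None of these lists had a gene lower at the unadjusted threshold. The counts of higher genes stand beside 6.56% of all genes and 11.5% of those brighter than the median gene.

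**Figure D4:**
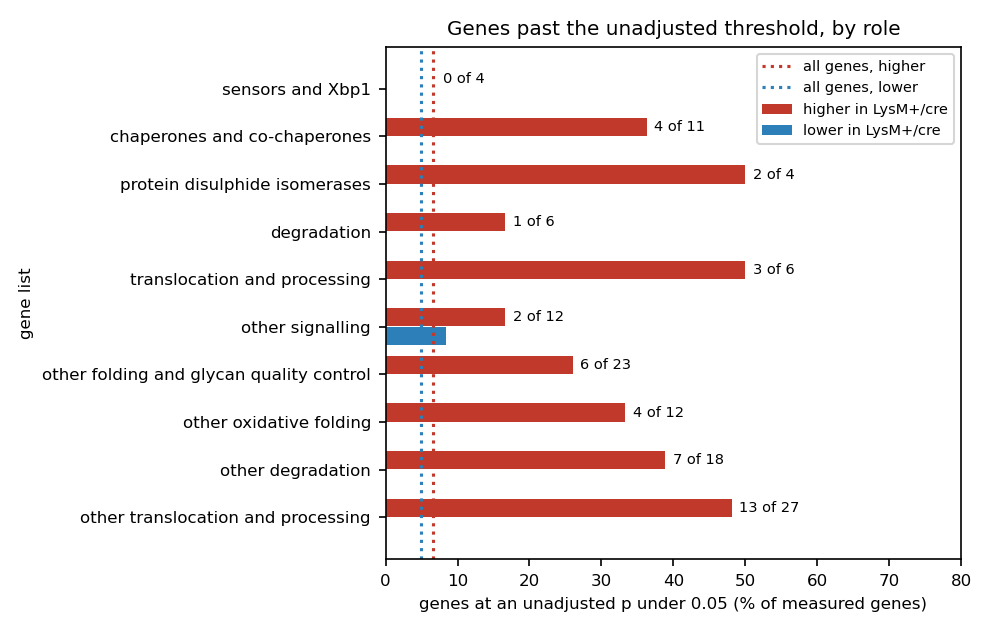
Bars give the percent of measured genes of each list at an unadjusted p under 0.05, higher (red) or lower (blue) in LysM+/cre, with the number higher beside each. Dotted lines are the shares of all genes, 6.56% higher and 4.93% lower. Among genes brighter than the median gene, a share not drawn, 11.5% were higher. Translocation genes reach 3 of 6 members and 13 of 27 further genes, and the sensor group 0 of 4.

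The further signalling genes had a median of 0.08, with 2 of 12 higher and 1 lower at the unadjusted threshold. These counts stand beside 6.56% and 4.93% of all genes, and 11.5% of those brighter than the median gene were higher. The lower gene was Ppp1r15a (GADD34), which encodes the phosphatase subunit that reverses eIF2 alpha phosphorylation. It read 10.78, 11.22, 11.06 and 11.20 in LysM+/cre, against 11.62, 11.51 and 11.72 in LysM+/+. The groups did not overlap, and the difference was -0.55 ± 0.122 (SE, adjusted p = 0.333). Atf6b, a paralogue of Atf6, had higher values in LysM+/cre without overlap, at 9.06, 8.60, 8.60 and 9.10, against 8.43, 8.22 and 8.10 in LysM+/+, a difference of 0.59 ± 0.165 (SE, adjusted p = 0.387). Tmbim6, an endoplasmic reticulum protein that dampens IRE1, differed by 0.19 ± 0.0703 (SE). Atf4 and Ddit3 (CHOP), transcription factors downstream of PERK, differed by -0.11 and -0.24, and neither passed the unadjusted threshold.

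Secretory cells of other types also express this machinery, so their markers are given beside these counts. The summed linear signal of 11 fibroblast and smooth muscle markers was 1746 to 2709 in LysM+/cre and 3211 to 5320 in LysM+/+, without overlap. Of the 11, 9 were lower in LysM+/cre, 4 of them at the unadjusted threshold, where 4.93% of all genes were. Dcn (decorin) made up 45.8% to 53.4% of the sum in LysM+/cre and 61.1% to 73.2% in LysM+/+. Without it, a sum taken after its values were seen, the other 10 markers gave 946 to 1309 in LysM+/cre and 1249 to 1428 in LysM+/+. These sums overlapped only through LysM+/cre array 2, at 1309, and the other LysM+/cre arrays gave 946 to 1002. Beside Dcn, at -1.38, the markers lower at the unadjusted threshold were Lum at -0.78, Pdgfra at -0.88 and Myh11 at -0.46. The collagen genes Col1a1, Col1a2 and Col3a1 differed by 0.04, -0.03 and 0.17. For 12 epithelial and goblet cell markers the sums were 1911 to 2896 in LysM+/cre and 1350 to 4729 in LysM+/+, and 10 were lower. At the unadjusted threshold 2 of the 12 were lower, Zg16 at -1.51 without overlap and Slc26a3 at -1.07. For 9 of 10 listed B and plasma cell markers that were measured, the sums were 938 to 1457 in LysM+/cre and 856 to 1414 in LysM+/+. These sums join opposite signs, with 5 positive and 4 negative differences. Sdc1 differed by 1.05, Jchain by -0.89 and Cd79b by 0.39, the last without overlap. Neutrophil markers summed to 1667 to 4734 in LysM+/cre, highest on array 3, and 937 to 2506 in LysM+/+, with overlap. All 7 had positive differences, as had 51.4% of all genes, and 0 passed the unadjusted threshold. Sums of macrophage, endothelial, T and NK cell, dendritic cell, and eosinophil and mast cell markers overlapped between genotypes. A log2 intensity has no true zero, and no marker was at 0. The part of these cells, and of the uneven gate genes, in the members' differences was not tested, and in sorted bulk samples more cells of a type and more RNA per cell cannot be told apart.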

How the data were processed

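Total RNA was measured on 7 arrays of the type Affymetrix Mouse Gene 2.0 ST, per the labels. The authors deposited 1 log2 intensity for each probe set and array, and the series' design text names Affymetrix Expression Console. The submitters' processing notes add Transcriptome Analysis Console. Their versions, summarisation and background steps were not given in the sources used here. Array medians of 5.16 to 5.21 on the log2 scale show a common scale, on which a shift of every gene together cannot be seen. Array log2 differences can be compressed for dim and bright probe sets.

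Of 41345 probe sets, 23521 had exactly 1 gene symbol in the platform annotation, 1814 had several and 16010 had none listed. No filter on dim genes was applied. Genotypes were compared in limma 3.58.1 (lmFit and eBayes, R 4.3.3), two-sided, without covariates, and adjusted by Benjamini-Hochberg over all 22180 genes at 0.05. The fit was tried on simulated data with planted changes larger than any member's, so its power at the members' differences was not examined. An unadjusted p under 0.05 was used to describe lists beside its share of all genes, with no test over a list. Promoters came from RefSeq tables. Figures used matplotlib 3.10.9.

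Array values are given for members at an unadjusted p under 0.05, the 3 sensors, Xbp1, Hspa5 and the member of smallest p in each role group. Dnajb9, Herpud1 and Derl2 were added after their values were seen. For each further list up to 3 genes of smallest p are named, and Atf4 and Ddit3 were named for their place in the pathway. The members and lists were chosen with earlier results of these data known, so the shares of all genes are not an independent comparison for their counts. The number of arrays limits the precision. Alternatives were other scalings, probe set rules, variance models, a filter on dim genes, array weights, a replicate block and leaving out each array.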

Additional observations from a re-analysis of the deposited data

Results flagged for a closer look

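Among the 4 LysM+/cre arrays 1 of 32 members had an array that stood apart by Dixon's criterion at 95%, which flags about 1 in 20 groups of 4 by chance. It was Derl2, at 6.55 on LysM+/cre array 3 against 6.32 on the nearest other LysM+/cre array. Groups of 3 arrays were not examined this way.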

How the results depend on the processing

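An adjusted p of 0.05 was passed by no gene under any alternative except the per-gene variance without moderation, which called 2 of 22180 genes, Arhgef40 and Gmnn, named after their values were seen. Neither is a member. The members higher at an unadjusted p under 0.05 numbered 7 to 11 when 1 array was left out, 7 without moderation and 14 with array medians set equal. The share of all genes higher moved too, at 4.40% to 7.02%, 4.67% and 8.05%, against 6.56% in the main fit. The 6 genes Calr, Ddost, Dnajb11, Hyou1, P4hb and Rcn1 were among the higher members under all 15 alternatives. When 1 of the 7 arrays was left out, Sdf2l1 and Edem1 lost that threshold in 5 fits each, Pdia6 and Ssr1 in 4 each and Ostc in 1 (without LysM+/+ array 3, at 0.42). The positive sign of these 5 genes held in every such fit. The count of lower members was 0 to 1 when 1 array was left out (Dnajb9 without LysM+/+ array 2), 1 after quantile normalization (Dnajb9) and 1 with the replicate block (Herpud1). In the fits that gave 1, the shares of all genes lower were 4.51%, 5.07% and 4.07%. The median member difference stayed between 0.13 and 0.20. Eif2ak3 lay between -0.20 and 0.14 over the fits that left out 1 array, and at 0.0011 with the replicate block. Derl2 turned to -0.060 with the mean of its probe sets. The labels do not say whether the replicate numbers 1 to 3 pair the samples. Correlations of deviations between arrays of the same number were -0.11, 0.12 and 0.10 over all genes, too few values to decide it. The block, a fit that drops LysM+/cre array 4, gave 11 members higher, where 5.58% of all genes were, with Ern1 gained and Ssr1 lost. The causes of these changes were not tested.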
